A study of Mus musculus with 65 samples.

Results

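At 48 h after the withdrawal of growth factors, neural cells derived from old mice were compared with those of young mice in 9 of the series' 65 libraries, the 4 old and 5 young libraries whose titles mark them as untreated and at this time. Each library is the poly(A) RNA of primary neural stem cells from the subventricular zone of 1 animal. The old mice were 25 months of age (2 female, 2 male) and the young mice 3 to 4 months (3 female, 2 male). All 9 carried the iOSKM genotype, a doxycycline-inducible cassette for the factors Oct4, Sox2, Klf4 and Myc, and none of these 9 cultures received doxycycline. Cells were plated with EGF and bFGF, the mitogens that hold them as stem cells, and were moved 18 h later to medium lacking both, in which they stayed for 48 h. The model is a mixed culture of primary cells taken out of the brain, so the age of an animal and differences between the cultures set up from young and old animals cannot be told apart.

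Neural stem cells of the adult subventricular zone give rise to neuroblasts bound for the olfactory bulb, to oligodendrocytes and to astrocytes. Homeobox factors of the Dlx family lead toward GABAergic neuroblasts, while Nkx2-2 and Sox8 act in the oligodendrocyte lineage, in which Gpr17 marks committed precursors that have not yet formed myelin. EGF and FGF receptors hold progenitors in cycle, and their ligands are the factors that were withdrawn here.

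The libraries held 73.4 M to 87.9 M counts in old and 72.5 M to 98.0 M in young cells, and the totals did not differ beyond the spread between animals (exact two-sided permutation p = 0.603, adjusted 0.746 over 4 measures; the smallest p this design allows is 0.0159). Counts on mitochondrial genes made up 1.92% ± 0.0889 of the total in old and 2.12% ± 0.194 in young libraries (SD, n = 4 and 5, exact p = 0.111), and those on features overlapping ribosomal RNA 2.72% ± 0.475 and 2.63% ± 0.336 (exact p = 0.746). The doxycycline-responsive activator M2rtTA lay at 95.5 ± 3.56 in old and 100.2 ± 7.74 in young libraries in CPM (counts scaled to library size by TMM) (exact p = 0.302). The sex given for each of the 9 libraries fitted its Xist and Ddx3y levels. Neural and glial markers were high throughout, with list sums of 31620 to 40820 CPM for stem cell and astrocyte markers and 12290 to 16440 CPM for oligodendrocyte precursor markers. Markers of cells outside the neural lineage were low. The 16 microglial and macrophage markers summed to 44.6 to 49 CPM in old and 47.9 to 52.2 CPM in young cells, with Trem2, Tyrobp, Fcrls and Ly86 at 0 in all 9. Those of endothelial cells summed to 8.69 to 9.97 and 7.85 to 10.9 CPM, and those of mural cells and fibroblasts to 17.3 to 24.1 and 19.1 to 23.1 CPM.

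Of 17043 genes tested, 1815 differed between the ages at an adjusted p under 0.05 (edgeR quasi-likelihood test with Benjamini-Hochberg adjustment; 10.6%). These were 960 higher in old cells (5.63%) and 855 lower (5.02%). Most differences were small: the median called change was 0.26 on the log2 scale in either direction, and 44 genes were higher and 43 lower by at least 1. The groups did not overlap for 2243 tested genes (13.2%), 1208 with every old library above every young one (7.09%) and 1035 with every old library below (6.07%). This was usual among called genes, at 810 of the 960 higher and 679 of the 855 lower. It was also a condition for naming genes by size or adjusted p, and naming by the gap between the groups ranks genes on it. It therefore adds no separate support to a gene named in any of these ways, such as Dlx1, Dlx2, Zic1 or Tgfb1i1. In bulk RNA, fewer cells of a type and less RNA per cell cannot be told apart, which holds for every gene below. The counts depended on the libraries in the fit. Without old replicate 3 there were 283 genes higher and 289 lower, without old replicate 2 there were 392 and 355, without old replicate 4 485 and 398, and without young replicate 1 432 and 374. Each other library left out gave 768 to 1298 and 695 to 1163.

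**Figure D1:**
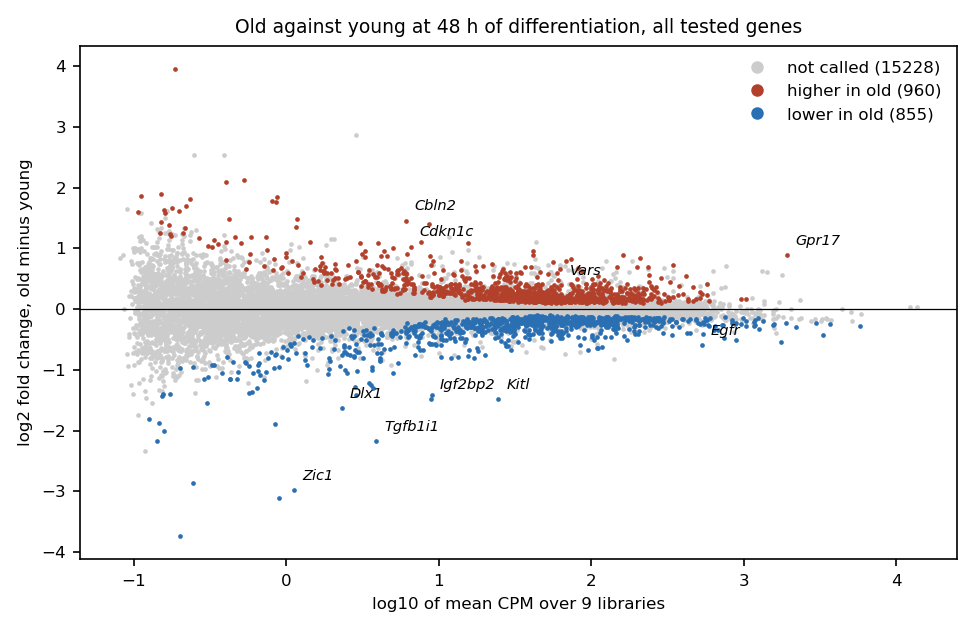
Log2 fold change of old against young cells at 48 h (vertical axis) over the log10 of the mean level in CPM (horizontal axis) for the 17043 genes tested, with 960 called higher in old cells in red, 855 called lower in blue and the rest in grey. Called changes of well-expressed genes are mostly below 1 on the log2 scale, while Zic1, Tgfb1i1, Dlx1, Igf2bp2 and Kitl stand among the lowest points.

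In the oligodendrocyte lineage more precursor markers were called higher in old cells than lower. Of 28 oligodendrocyte precursor markers tested, 8 were called higher (5.63% of all genes were) and 2 lower (5.02%), with a median of 0.27 against 0.0007 over all genes. Gpr17 (ENSMUSG00000052229, chromosome 18, 31942997 to 31949636 in mm10), the orphan receptor of committed precursors, was at 2313, 2397, 2855 and 2758 CPM in old replicates 1 to 4 and at 1192, 1610, 877, 1843 and 1461 CPM in young replicates 1 to 5. Every old library lay above every young one, by 0.89 ± 0.20 (log2 fold change ± SE, adjusted p = 0.0275). C1ql1, a secreted C1q-like protein made by precursors, was at 60.6, 71.0, 86.8 and 75.2 CPM in old against 41.4, 49.2, 29.5, 52.4 and 40.7 CPM in young cells (0.78 ± 0.17, adjusted p = 0.0301). In both genes young replicate 3 was the lowest and old replicate 3 the highest library. The transcription factor Nkx2-2 was at 69.7, 77.8, 84.5 and 80.8 CPM in old against 44.0, 53.9, 45.1, 58.0 and 44.8 CPM in young cells, without overlap (0.67 ± 0.09, adjusted p = 0.00522). Its antisense transcript Nkx2-2os, which overlaps it on the other strand of chromosome 2 (147184083 to 147331681), was at 25.0 ± 1.55 against 15.2 ± 1.47 CPM (0.72 ± 0.07, adjusted p = 0.00117). The library kit keeps strand but the strand setting of the counting is not given, so reads of the 2 transcripts may be mixed. The same holds for Gpr17 and Lims2, a focal adhesion adaptor gene within which Gpr17 lies on the opposite strand, and Lims2 was higher by 0.84 ± 0.19 (277 ± 31.2 against 154 ± 38.6 CPM, adjusted p = 0.0334). The proteoglycan gene Vcan (0.56 ± 0.12) and the SoxE factor Sox8 (0.29 ± 0.05) were also higher, the latter named with Mbp after values were seen.

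Among the 2 called lower was Pdgfra. This gene, which encodes the PDGF receptor of proliferating precursors, was at 78.6, 72.0, 68.1 and 74.5 CPM in old against 94.5, 106, 106, 88.9 and 114 CPM in young cells (-0.48 ± 0.07, adjusted p = 0.00445), every old library below every young one. Among 24 myelin genes 1 was called in each direction, although their median was 0.37. Zfp488, an oligodendrocyte transcription factor, was higher by 0.29 ± 0.06, and Mal, a lipid raft protein of myelin, was lower by -0.85 ± 0.16 at 1.33 ± 0.144 against 2.40 ± 0.504 CPM. Mbp, which encodes myelin basic protein, was at 87.0, 133, 165 and 292 CPM in old against 61.8, 103, 36.0, 200 and 165 CPM in young cells (0.58 ± 0.58, adjusted p = 0.566). The groups overlapped: young replicate 3 was the lowest library, and young replicates 2, 4 and 5 lay within the old range. Pllp, a myelin-associated proteolipid outside the list, was higher by 0.83 ± 0.18 (97.1 ± 15.7 against 54.7 ± 11 CPM). Leaving out 1 library gave 4 to 12 precursor markers called higher, with 4 without old replicate 3 or young replicate 1 and 5 without old replicate 2. Myelin genes called higher numbered 0 without old replicate 3, 2 without old replicate 1 and 5 without young replicate 4. Gpr17, C1ql1, Lims2, Pllp and Vcan each passed 0.05 no longer without old replicate 3 or young replicate 1 (highest adjusted p = 0.0889, 0.0888, 0.103, 0.0777 and 0.0649 over the libraries left out), the first 4 also without old replicates 2 or 4, and C1ql1 and Lims2 without young replicate 5. Zfp488 reached 0.0534 without old replicate 3. Nkx2-2, Nkx2-2os, Sox8, Pdgfra and Mal passed in all 9 such fits.

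**Figure D2:**
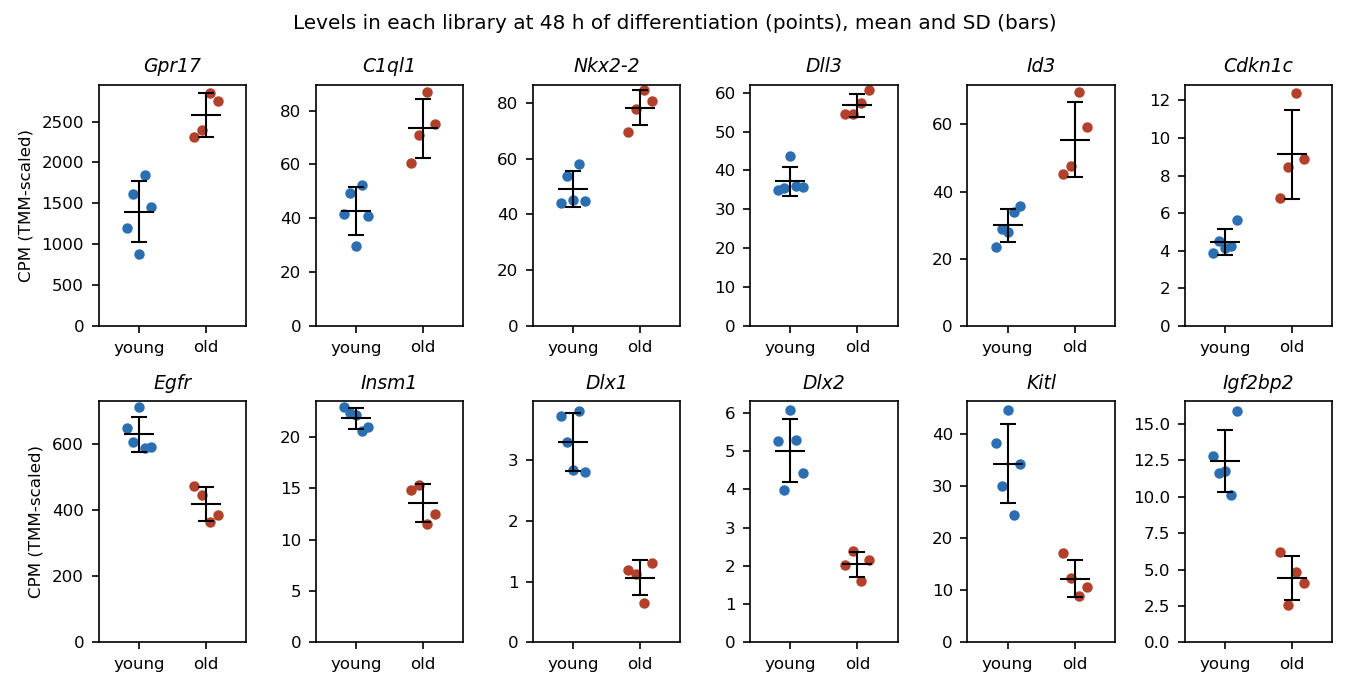
Levels in CPM (vertical axes, starting at 0) of 12 genes in the 5 young (blue) and 4 old (red) libraries at 48 h, with mean and SD as black bars. In each panel the groups do not overlap, with Gpr17, C1ql1, Nkx2-2, Dll3, Id3 and Cdkn1c higher and Egfr, Insm1, Dlx1, Dlx2, Kitl and Igf2bp2 lower in old cells.

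In the neuronal lineage more markers were called lower than higher. Of 32 neuroblast and young neuron markers 13 were called lower (5.02% of all genes) and 3 higher, with a median of -0.23. Dlx1, a homeobox factor that specifies GABAergic neuroblasts, was at 1.19, 1.13, 0.652 and 1.30 CPM in old against 3.72, 3.30, 2.84, 3.81 and 2.81 CPM in young cells (-1.63 ± 0.18, adjusted p = 0.00117). Its neighbour Dlx2 was at 2.02, 2.40, 1.61 and 2.15 CPM against 5.27, 3.98, 6.08, 5.29 and 4.42 CPM (-1.29 ± 0.14, adjusted p = 0.00117). The highest old library lay below the lowest young one in both genes. Dlx6os1, an antisense transcript of the separate Dlx5 and Dlx6 locus on chromosome 6, was also called lower. It lay at or below 0.404 CPM in all 9 libraries and at 0 in old replicate 2. The 3 called higher were the microtubule protein gene Dcx (175 ± 15.6 against 140 ± 13.7 CPM, 0.33 ± 0.08, adjusted p = 0.0298), the RNA-binding protein gene Elavl4 (0.34 ± 0.08) and the adhesion molecule gene Ncam1 (0.19 ± 0.05), so the list did not move in 1 direction. Zic1, a zinc finger factor of olfactory interneuron lineages outside the list, was at 0.170, 0.309, 0.252 and 0.204 CPM in old against 3.10, 1.65, 2.43, 0.721 and 1.27 CPM in young cells (-2.98 ± 0.44, adjusted p = 0.00528). Dlx1, Dlx2 and Zic1 passed without each library in turn. The count of markers called lower was 5 without young replicate 1, 6 without old replicates 2 or 3, 7 without old replicate 4 and 8 without young replicate 2. Those called higher numbered 0 without old replicates 3 or 4 and 1 without old replicate 2 or young replicate 1. Dlx6os1 no longer passed without any 1 of the old libraries (highest adjusted p = 0.0928), Dcx and Ncam1 reached 0.102 and 0.0837 and failed without old replicates 2, 3 or 4 or young replicate 1, Dcx also without young replicate 3, and Elavl4 reached 0.0888, failing without old replicates 3 or 4.

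Of 18 markers of activated, dividing progenitors 7 were called lower (38.9%, against 5.02% of all genes) and 1 higher (median -0.26). Insm1, a zinc finger repressor of intermediate progenitors, was at 14.8, 15.3, 11.5 and 12.5 CPM in old against 22.9, 22.3, 22.1, 20.5 and 21 CPM in young cells (-0.69 ± 0.08, adjusted p = 0.00135). Egfr, the receptor for the withdrawn EGF, was at 474, 445, 364 and 384 CPM in old against 648, 605, 712, 587 and 589 CPM in young cells (-0.59 ± 0.08, adjusted p = 0.00407). In both genes all 4 old libraries lay below all 5 young ones. Ccnd2, a D-type cyclin, was at 83.1 ± 14.7 against 129 ± 18.1 CPM (-0.64 ± 0.14, adjusted p = 0.0279), and Cdk6, a kinase partner of D-type cyclins outside the list, at 8.50 ± 1.23 against 14.8 ± 2.31 CPM (-0.80 ± 0.13, adjusted p = 0.00661). Hes6 (below) is a member of this list as well. Genes of mitosis were not called: 0 of 32 passed in edgeR, 1 had an unadjusted p under 0.05 and DESeq2 called 0, with a median of -0.12. Of 32 DNA replication genes 1 was called higher and 2 lower. Ccne1, the cyclin of the entry into S phase, was the one higher, at 6.08, 6.83, 7.29 and 6.14 CPM in old against 3.89, 4.67, 4.67, 3.63 and 5.08 CPM in young cells (0.59 ± 0.10, adjusted p = 0.00699). Without old replicates 2, 3 or 4 or young replicates 1 or 3, 4 progenitor markers were called lower. The marker called higher, Mfng, was not called without old replicate 3, and 2 were without young replicate 3. The replication genes called lower numbered 0 without young replicates 1 or 3 or old replicates 1, 2 or 4 and 1 without old replicate 3 or young replicates 2 or 5, and those called higher 2 without young replicates 3 or 4. Ccnd2 reached an adjusted p of 0.0754, failing without young replicates 1, 3 or 5 or old replicates 2, 3 or 4, and the other genes named here passed in all 9 fits.

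Cell cycle inhibitors moved in both directions. Of 26 cell cycle arrest genes and p53 targets 3 were called higher (11.5%, against 5.63% of all genes) and 1 lower (3.85%, against 5.02%). Cdkn1c, the imprinted inhibitor p57, was at 6.80, 8.44, 12.4 and 8.86 CPM in old against 3.87, 4.49, 4.13, 4.25 and 5.62 CPM in young cells (1.03 ± 0.17, adjusted p = 0.00661), without overlap. Cdkn2a, whose products p16 and p19Arf are used as marks of cell senescence, was lower: 39.9, 41.5, 41.9 and 40.5 CPM in old against 54.2, 45.7, 50.7, 53.6 and 52.8 CPM in young cells (-0.33 ± 0.05, adjusted p = 0.00312). Ddit4, an inhibitor of mTORC1 signalling, was higher by 0.33 ± 0.06 (112 ± 6.87 against 89.3 ± 7.96 CPM), and Cdkn2c by 0.19 ± 0.05, which passed without young replicate 4 alone left out and in no other such fit (highest adjusted p = 0.101).

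Astrocytes and quiescent stem cells share many markers, and of 37 tested 13 were called lower (5.02% of all genes) and 3 higher, with a median of -0.20. The summed level of the list was 31620 to 34550 CPM in old and 36050 to 40820 CPM in young libraries, without overlap. The neuropeptide-processing enzyme gene Cpe was at 2975, 2883, 2366 and 2958 CPM in old against 3863, 3467, 3118, 4644 and 3747 CPM in young cells (-0.43 ± 0.11, adjusted p = 0.0334). Slco1c1, a thyroid hormone transporter, was lower by -0.63 ± 0.13 (1.84 ± 0.292 against 2.85 ± 0.324 CPM), Slc7a10, a small amino acid transporter of astrocytes, by -0.48 ± 0.09, and the acyl-CoA synthetase gene Acsbg1 by -0.39 ± 0.11. The 3 higher were Id3, Id2 and Gpr37l1. Gpr37l1, an astrocyte receptor, was at 347, 354, 335 and 354 CPM in old against 240, 247, 200, 267 and 258 CPM in young cells (0.52 ± 0.07, adjusted p = 0.00312), with a gap between the groups. Pla2g7, a platelet-activating factor hydrolase outside the list, was lower at 633, 644, 564 and 623 CPM against 901, 829, 875, 791 and 873 CPM (-0.47 ± 0.05, adjusted p = 0.00117). The GABA transporter gene Slc6a11 opened a run of 6 neighbouring tested genes on chromosome 6 that were all called lower (114131241 to 115037876). It was at 1412 ± 203 against 2043 ± 279 CPM (-0.53 ± 0.12, adjusted p = 0.0243). Members called lower numbered 5 without old replicate 2, 6 without old replicate 3 and 7 without old replicate 4. Cpe, Acsbg1 and Slc6a11 reached adjusted p-values of 0.0888, 0.139 and 0.0718 and failed without old replicates 2, 3 or 4 or young replicate 1, Cpe and Acsbg1 also without young replicate 5 and Acsbg1 without young replicate 2.

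**Figure D3:**
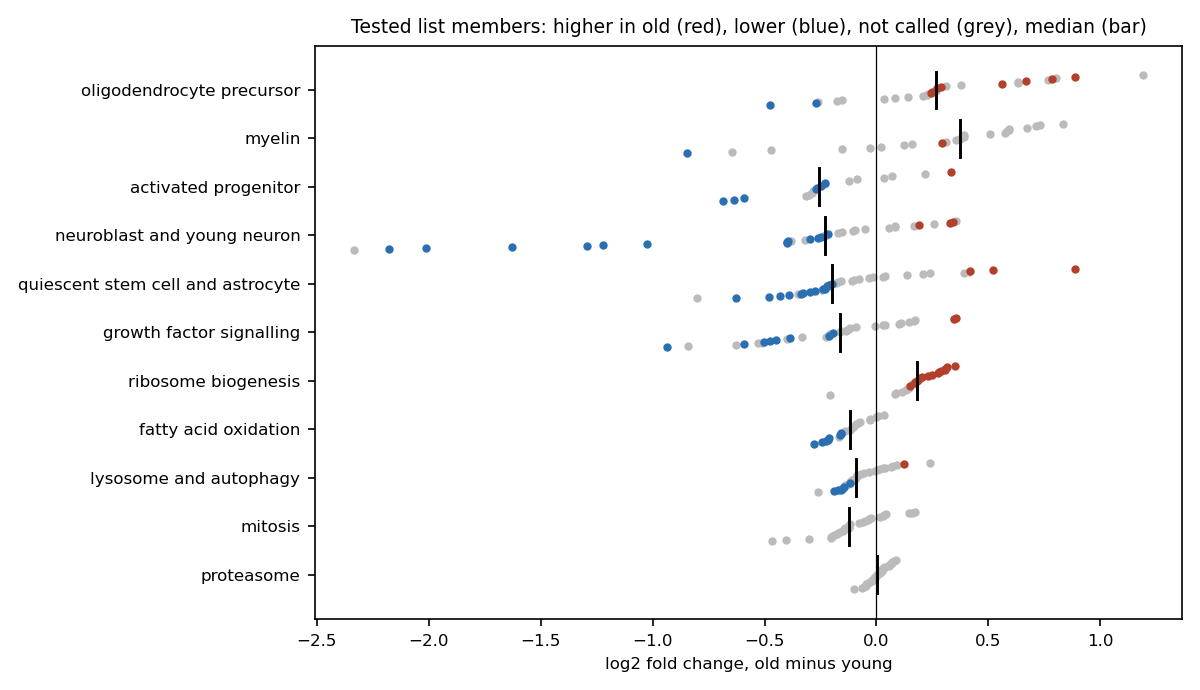
Log2 fold change of old against young cells (horizontal axis) for every tested member of 11 gene lists, with members called higher in red, called lower in blue, not called in grey and the list median as a black bar. Ribosome biogenesis members sit to the right (16 of 25 called higher) and fatty acid oxidation members to the left (8 of 22 called lower), while no member of the mitosis or proteasome lists was called.

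Of 35 growth factor signalling genes, Egfr and Pdgfra among them, 8 were called lower (22.9%, against 5.02% of all genes) and 2 higher (5.71%, against 5.63%), with a median of -0.16. Etv5, an ETS factor downstream of FGF receptors, was at 94.1, 88.4, 74.2 and 80.8 CPM in old against 126, 115, 148, 111 and 97.9 CPM in young cells (-0.50 ± 0.12, adjusted p = 0.0322). Pdgfa, a ligand gene of the receptor Pdgfra, was higher at 25.0 ± 1.02 against 19.7 ± 2.42 CPM (0.35 ± 0.08, adjusted p = 0.0199). Kitl, the ligand of the receptor Kit and a gene outside the list, was at 17.2, 12.3, 8.96 and 10.6 CPM in old against 38.3, 30.1, 44.5, 24.5 and 34.1 CPM in young cells. Its fold change of -1.49 ± 0.24 (adjusted p = 0.0101) was among the largest of genes at this level. Tnfrsf19, a TNF receptor family member of neural progenitors, was at 71.6 ± 10.6 against 115 ± 15.3 CPM (-0.68 ± 0.13, adjusted p = 0.0149). Members called lower numbered 3 without young replicate 1 or old replicate 2, 4 without old replicate 4 and 5 without old replicate 3, and those called higher 0 without old replicates 3 or 4 or young replicate 1 and 1 without old replicates 1 or 2 or young replicates 2, 3 or 5. Etv5 reached 0.0948, failing without old replicates 2, 3 or 4 or young replicates 1 or 2, and Pdgfa 0.0667, failing without old replicates 3 or 4 or young replicate 1. Kitl and Tnfrsf19 passed in all 9 fits.

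In the Notch pathway, by which neighbouring progenitors hold each other back from differentiation, 3 of 18 genes were called higher (16.7%, against 5.63% of all genes) and 4 lower (22.2%, against 5.02%). The divergent ligand gene Dll3 was higher and the proneural cofactor gene Hes6 lower, and the promoters of both, from RefSeq on GRCm38.p6, are shown because they share the letters CAGCTG, an E-box bound by proneural factors. CAGCTG reads the same on both strands and is in capitals below; each window spans 250 bases before to 50 after the RefSeq start, 5' to 3' on the gene's strand.
Dll3, chr7:28301736-28302035, minus strand: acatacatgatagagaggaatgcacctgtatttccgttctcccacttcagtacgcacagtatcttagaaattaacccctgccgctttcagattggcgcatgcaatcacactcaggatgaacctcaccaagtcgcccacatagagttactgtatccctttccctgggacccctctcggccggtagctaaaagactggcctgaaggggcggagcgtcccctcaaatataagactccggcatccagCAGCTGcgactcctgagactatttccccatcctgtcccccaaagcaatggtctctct
Hes6, chr1:91413989-91414288, minus strand: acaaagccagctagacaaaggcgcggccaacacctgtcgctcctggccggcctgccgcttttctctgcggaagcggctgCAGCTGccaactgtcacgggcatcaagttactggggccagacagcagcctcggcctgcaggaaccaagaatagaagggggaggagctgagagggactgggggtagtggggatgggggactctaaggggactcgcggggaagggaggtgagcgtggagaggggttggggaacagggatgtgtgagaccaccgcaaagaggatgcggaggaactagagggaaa
The motif begins at base -7 from the start in Dll3 and at base -171 in Hes6. The Dll3 window starts from a transcript start 453 bases from that of the annotation used for the counts. Of 12171 tested genes with a promoter in the table, 1872 hold CAGCTG in this window (15.4%), as do 114 of 718 genes called higher and 104 of 655 called lower (15.9% each), so the share was alike in both directions and close to that of all promoters. A match is a description of letters and shows no binding. Dll3 was at 54.6, 54.5, 57.4 and 60.8 CPM in old against 35.1, 35.4, 43.7, 36.0 and 35.8 CPM in young cells (0.61 ± 0.06, adjusted p = 0.00117). Hes6 was at 139, 134, 117 and 124 CPM in old against 164, 149, 165, 150 and 145 CPM in young cells (-0.27 ± 0.06, adjusted p = 0.0133). Old and young libraries did not overlap in either gene. The ligand gene Jag2 (0.51 ± 0.12, adjusted p = 0.0214) and the glycosyltransferase gene Mfng (0.33 ± 0.07, adjusted p = 0.0121), which modifies Notch receptors, were higher. Its relative Lfng was lower by -0.42 ± 0.11 (85.4 ± 8.22 against 114 ± 17.7 CPM, adjusted p = 0.0498), and the receptor gene Notch2 by -0.30 ± 0.06 (111 ± 7.43 against 136 ± 10.2 CPM, adjusted p = 0.0113). Without old replicate 3, 1 gene was called higher, and without old replicates 3 or 4 or young replicates 1 or 2, 2 were called lower. Mfng reached 0.0541 without old replicate 3, Jag2 0.0672, failing without old replicates 2, 3 or 4 or young replicate 1, and Lfng 0.137, failing without those or young replicates 2 or 5. Dll3, Hes6 and Notch2 passed in all 9 fits.

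Targets and ligands of the BMP pathway, which promotes astrocyte fate and quiescence, were split as well, with 3 of 26 called higher (11.5%, against 5.63% of all genes) and 2 lower (7.69%, against 5.02%), at a median of -0.002. The 3 higher were Id1, Id2 and Id3, which encode inhibitors of bHLH factors and are induced by BMP. Id3 was at 45.3, 47.7, 69.5 and 59.3 CPM in old against 23.4, 29.0, 27.9, 33.8 and 35.8 CPM in young cells (0.89 ± 0.16, adjusted p = 0.0157), every old library above every young one. Id1 was at 28.6 ± 4.17 against 17.1 ± 3.73 CPM (0.75 ± 0.17, adjusted p = 0.0275) and Id2 at 201 ± 18.1 against 150 ± 22.1 CPM (0.42 ± 0.11, adjusted p = 0.0425). Bmper, a secreted BMP-binding regulator, was lower by -0.41 ± 0.07 (35.0 ± 3.68 against 46.5 ± 2.69 CPM, adjusted p = 0.00613). Among 27 Wnt genes 5 were called lower (18.5%) and 1 higher (3.70%). The ligand gene Wnt5a was at 102, 94.2, 82.2 and 83.8 CPM in old against 146, 126, 169, 139 and 119 CPM in young cells (-0.63 ± 0.11, adjusted p = 0.0110), without overlap. Wnt7b was lower by -0.45 ± 0.10, and the Wnt target gene Axin2 by -0.35 ± 0.07 (25.3 ± 1.07 against 32.4 ± 3.49 CPM), while Lgr5, a receptor for R-spondins, was higher by 0.32 ± 0.07. Id1 and Id2 reached adjusted p-values of 0.0858 and 0.124, both failing without old replicates 2, 3 or 4 or young replicates 1 or 2, Id2 also without old replicate 1 or young replicate 4. With 1 of those 5 libraries left out, 1 BMP gene was called higher. The BMP genes called lower numbered 1 without old replicates 2, 3 or 4 or young replicate 1. Wnt genes called lower numbered 3 without old replicates 3 or 4 or young replicate 1, and none was called higher without old replicates 2 or 3 or young replicate 1, while 2 were without young replicate 2. Wnt7b reached 0.0658, failing without old replicates 2, 3 or 4 or young replicate 1, and Lgr5 0.0694, failing without old replicates 2 or 3 or young replicate 1.

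Ribosome biogenesis genes were the list with the largest share called higher among the 46 described, with small changes. Of 25 ribosome biogenesis genes 16 were called higher (5.63% of all genes) and 0 lower, with a median of 0.18 and values from -0.21 to 0.35. Rrs1, a factor of large subunit assembly, was at 42.9, 43.0, 46.8 and 46.9 CPM in old against 33.5, 34.0, 35.3, 38.4 and 34.7 CPM in young cells (0.35 ± 0.05, adjusted p = 0.00260). Wdr12, a subunit of the PeBoW complex, was at 25.5, 25.2, 25.0 and 25.8 CPM against 19.5, 21.4, 20.3, 19.3 and 21.7 CPM (0.31 ± 0.05, adjusted p = 0.00325). The groups did not overlap in either gene. Polr1b, a subunit of RNA polymerase I, and the spermidine synthase gene Srm, a MYC target, were each higher by 0.31 ± 0.05 (26.4 ± 1.34 against 21.4 ± 0.957 CPM and 57.1 ± 2.39 against 46.1 ± 3.45 CPM). Vars, the valine tRNA synthetase gene, had the smallest adjusted p among genes named by p and was at 72.2, 74.1, 75.8 and 71.6 CPM in old against 52.6, 57.4, 54.7, 56.8 and 57.1 CPM in young cells (0.40 ± 0.03, adjusted p = 7.24e-04). Of 45 cytosolic ribosomal protein genes 2 were called higher and 0 lower (median 0.05). In the unfolded protein response 3 of 19 were called higher, among them Sdf2l1 at 15.7 ± 0.612 against 11.8 ± 0.680 CPM (0.41 ± 0.05, adjusted p = 0.00260) and the chaperone gene Hyou1 (0.16 ± 0.03). The integrated stress response had 3 of 23 called higher, among them the asparagine synthetase gene Asns (0.31 ± 0.05, adjusted p = 0.00533), and heat shock 2 of 16. Without old replicates 2 or 3, 8 ribosome biogenesis genes were called, the fewest of the 9 fits. One ribosomal protein gene was called without old replicate 3 or young replicate 2 and none without any of the others except young replicate 4. The integrated stress response had 1 called without old replicate 3 and heat shock 0 without old replicates 2 or 3 and 1 without old replicates 1 or 4 or young replicates 1, 3 or 5. Each gene named in this paragraph passed in all 9 fits.

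Members of the fatty acid oxidation and lysosome lists were called lower by small amounts. Of 22 genes of mitochondrial fatty acid oxidation 8 were called lower (36.4%, against 5.02% of all genes) and 0 higher (median -0.12). Decr1, which handles unsaturated fatty acids, was at 45.5, 42.0, 39.6 and 41.4 CPM in old against 51.8, 49.2, 52.2, 47.6 and 54.6 CPM in young cells (-0.28 ± 0.05, adjusted p = 0.00624), without overlap. The dehydrogenase genes Hadh (-0.24 ± 0.05), Acadm (-0.22 ± 0.04) and Etfdh (-0.22 ± 0.04) were lower as well. Of 34 lysosome and autophagy genes 7 were called lower and 1 higher. Those lower included the cathepsin genes Ctsb (404 ± 13.2 against 460 ± 14.6 CPM, -0.19 ± 0.04, adjusted p = 0.0105) and Ctsd (-0.17 ± 0.05, adjusted p = 0.0370). Among 13 mitochondrially encoded genes 3 were called lower. Of these mt-Nd6 was at 1063, 1030, 1098 and 985 CPM in old against 1246, 1198, 1322, 1317 and 1221 CPM in young cells (-0.27 ± 0.05, adjusted p = 0.00678), and mt-Nd5, which overlaps its end on the other strand, was lower by -0.23 ± 0.06 (adjusted p = 0.0310). The share of all mitochondrial counts, given above, overlapped between the ages. Nuclear respiratory chain genes had 1 of 35 called lower. Adm, the hypoxia-induced peptide adrenomedullin, was lower by -1.05 ± 0.20 (3.12 ± 1.07 against 6.47 ± 0.654 CPM, adjusted p = 0.0111), one of 4 lower and 1 higher among 29 glycolysis and hypoxia genes. None of 31 proteasome genes passed in edgeR, 2 had an unadjusted p under 0.05, and DESeq2 called 0. Cholesterol synthesis had 1 of 24 called higher, fatty acid synthesis 1 of 18 in each direction and Nrf2 antioxidant genes 1 of 27 higher. The oxidation genes numbered 4 without old replicate 3 and 5 without young replicate 1 or old replicate 2. The lysosomal genes called lower numbered 2 without young replicate 1 or old replicate 2, 3 without old replicate 3 or young replicate 5 and 4 without old replicates 1 or 4. The mitochondrially encoded genes numbered 1 without young replicates 1 or 3 or old replicates 1, 2 or 4, and the nuclear ones 0 without old replicates 2, 3 or 4 or young replicate 1 and 5 without young replicate 4. Ctsd reached 0.114, failing without old replicates 2, 3 or 4 or young replicates 1 or 5, and mt-Nd5 0.0949, failing without young replicates 1 or 3 or old replicates 1, 2 or 4, while the other genes named here passed in all 9 fits. The lists with 1 call changed as well. Cholesterol synthesis had 0 without old replicates 2, 3 or 4 or young replicate 1 and 2 without old replicate 1 or young replicate 3, and Nrf2 genes 2 without young replicates 2 or 4, 1 without young replicate 3 and 0 otherwise. Fatty acid synthesis had 2 higher and 3 lower without young replicate 4 and 0 lower without any other library. The glycolysis gene called higher was lost without old replicates 2 or 3 or young replicates 1, 3 or 5, with 3 called without young replicate 4, and the lysosomal one held without old replicate 1 alone, with 2 called without young replicate 4.

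Of 23 imprinted and fetal growth genes 4 were called lower (17.4%, against 5.02% of all genes) and 1, Cdkn1c, higher (median -0.18). Igf2bp2, an RNA-binding protein of fetal growth that binds Igf2 transcripts, was at 6.19, 2.57, 4.82 and 4.09 CPM in old against 12.8, 11.6, 11.8, 10.1 and 15.9 CPM in young cells (-1.49 ± 0.23, adjusted p = 0.00815). Grb10, an imprinted adaptor that restrains insulin and IGF receptors, was at 5.09, 5.64, 4.67 and 3.20 CPM against 13.7, 9.83, 13.8, 7.80 and 17.1 CPM (-1.42 ± 0.26, adjusted p = 0.0140). Every old library lay below every young one in both. Ndn, the MAGE family gene necdin, differed less but with little spread, at 39.1, 37.6, 36.5 and 36.8 CPM in old against 47.3, 44.6, 47.3, 46.3 and 48.5 CPM in young cells (-0.32 ± 0.04, adjusted p = 0.00117). Igf2 itself was near the floor at 0.379 ± 0.0693 against 0.727 ± 0.178 CPM (-0.94 ± 0.23, adjusted p = 0.0254). Grb10 reached an adjusted p of 0.0534 without old replicate 3, and Igf2 0.0735, failing without young replicate 1 or old replicates 1, 2 or 4.

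Of 15 antigen presentation genes 3 were called lower (20%, against 5.02% of all genes), including B2m, the light chain of class I molecules, at 55.0, 49.2, 49.1 and 51.5 CPM in old against 65.5, 62.1, 64.4, 66.7 and 58.0 CPM in young cells (-0.31 ± 0.05, adjusted p = 0.00363). Of 29 interferon response genes 2 were called lower (6.90%) and 1 higher (3.45%, against 5.63%), close to the shares over all genes (median -0.12). Gbp3 and, outside the list, Gbp5 and Gbp7, interferon-inducible GTPases that lie next to each other on chromosome 3 (142493978 to 142573209), were all lower. Gbp7 was at 11.2, 8.53, 8.37 and 10.1 CPM in old against 17.8, 15.9, 17.5, 16.1 and 15.0 CPM in young cells (-0.79 ± 0.09, adjusted p = 0.00117), Gbp3 at 5.64 ± 0.893 against 9 ± 1.06 CPM (-0.67 ± 0.11) and Gbp5 at 1.79 ± 0.303 against 2.93 ± 0.580 CPM (-0.71 ± 0.16). Related GTPases share sequence, so reads could be split between them. None of 10 complement genes passed in edgeR, 2 had an unadjusted p under 0.05 and DESeq2 called 0. Cytokines and chemokines had 1 of 15 called lower. Antigen presentation genes numbered 1 without old replicates 2 or 3 or young replicates 3 or 5, the interferon genes called lower 1 without young replicate 1 or old replicates 2 or 4 and those called higher 2 without young replicate 4, and the cytokine genes 0 without old replicates 2 or 3 or young replicate 1. Gbp5 reached 0.066, failing without old replicates 2 or 3.

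Matrix, adhesion and membrane genes were called in both directions. Of 42 extracellular matrix genes 3 were called higher and 3 lower (7.14% each, against 5.63% and 5.02% of all genes). The glycoprotein gene Tnc, made by progenitors and astrocytes, was at 91.6, 115, 120 and 108 CPM in old against 61.2, 74.1, 50.8, 73.2 and 91.5 CPM in young cells (0.63 ± 0.16, adjusted p = 0.0483), with old replicate 1 barely above young replicate 5. Col11a1 was higher by 0.41 ± 0.10 and the laminin gene Lamb1 lower by -0.59 ± 0.08 (7.49 ± 0.322 against 11.3 ± 1.24 CPM, adjusted p = 0.00312). Integrins and adhesion genes had 5 of 27 called lower, and contractile genes and YAP targets 3 of 23 in each direction, among them Amotl2 (202 ± 7.20 against 160 ± 4.51 CPM, 0.34 ± 0.03, adjusted p = 0.00117) and S100a6 (0.87 ± 0.19, adjusted p = 0.0246) higher. Tgfb1i1, a focal adhesion and TGF-beta coactivator gene outside the list, was at 1.4, 1.12, 1.11 and 1.6 CPM in old against 6, 2.48, 6.5, 7.46 and 7.22 CPM in young cells (-2.18 ± 0.32, adjusted p = 0.00624), without overlap. Of 38 clustered protocadherins, cell surface proteins that mark single neurons, 9 were called higher (23.7%) and 0 lower in edgeR, although the list's median was -0.14. DESeq2 called 9 higher and 16 lower, and edgeR called 3 lower without young replicate 4 and 1 without young replicate 3, so the absence of lower calls depended on the test and the libraries. Pcdhb2 on chromosome 18 (37294812 to 37297624) was at 21.9, 20.6, 27.2 and 18.6 CPM in old against 13.2, 14.7, 15.6, 10.8 and 13.1 CPM in young cells (0.71 ± 0.12, adjusted p = 0.00919). Pcdha4 was higher by 0.61 ± 0.14, but genes of the alpha cluster share their last exons, so their counts are not independent. Chl1, an adhesion molecule of the L1 family, was lower by -0.78 ± 0.17 and Cdon, a Hedgehog co-receptor, by -0.68 ± 0.11 (22.3 ± 1.66 against 35.7 ± 5.35 CPM). Matrix genes called higher numbered 0 without old replicate 3 or young replicate 1, 1 without old replicates 2 or 4 or young replicate 2 and 5 without young replicate 4, and those called lower 1 without old replicates 3 or 4 or young replicate 1 and 5 without young replicate 4. Adhesion genes numbered 1 without old replicate 2, 2 without old replicates 3 or 4 or young replicate 1 and 8 without young replicate 4. Contractile genes called lower numbered 0 without old replicate 3, 1 without old replicates 2 or 4 or young replicate 1 and 5 without young replicate 5, and protocadherins 1 without old replicate 3, 3 without young replicate 1 and 4 without old replicate 1. Tnc reached 0.137, Col11a1 0.0974, S100a6 0.0784 and Chl1 0.0712, all failing without old replicates 2, 3 or 4 or young replicate 1, Tnc also without young replicates 2 or 4, Col11a1 without old replicate 1 or young replicates 2 or 3, S100a6 without young replicate 2 and Chl1 without old replicate 1. Pcdha4 reached 0.0794, failing without old replicates 1 or 3 or young replicates 1, 3 or 5.

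Of 39 ion channel and receptor genes tested, 6 were called higher (15.4%, against 5.63% of all genes) and 8 lower (20.5%, against 5.02%). The NMDA receptor subunit gene Grin3a was at 136, 146, 160 and 140 CPM in old against 99.2, 110, 97.7, 101 and 110 CPM in young cells (0.49 ± 0.05, adjusted p = 0.00117), and the AMPA receptor subunit gene Gria3 at 44.3 ± 5.14 against 33.9 ± 1.64 CPM (0.39 ± 0.07). Other NMDA receptor subunits were lower: Grin2b was at 4.03, 3.82, 3.56 and 3.20 CPM in old against 6.21, 5.29, 6.20, 8.85 and 7.26 CPM in young cells (-0.89 ± 0.14, adjusted p = 0.00426), and Grin2c at 2.12 ± 0.109 against 3.38 ± 0.461 CPM (-0.67 ± 0.11). The metabotropic glutamate receptor gene Grm3 (-0.75 ± 0.19, adjusted p = 0.0382) and the potassium channel gene Kcnd3 (172 ± 12.7 against 229 ± 17.6 CPM, -0.42 ± 0.06) were lower. Members called lower numbered 4 without old replicates 2 or 3 and 5 without old replicate 4 or young replicates 1 or 5. Grm3 reached 0.115, failing in each fit except those without old replicate 1 or young replicate 4.

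Further genes led by size or by separation of the groups. Cbln2, a secreted synapse organiser, was at 6.40, 8.71, 11.8 and 10.5 CPM in old against 2.93, 4.13, 1.97, 3.56 and 4.48 CPM in young cells (1.46 ± 0.25, adjusted p = 0.0107). Csmd3, a large membrane protein gene, was at 19.9, 21.6, 26.3 and 20.3 CPM against 9.21, 11.7, 9.93, 7.71 and 13.0 CPM (1.10 ± 0.15, adjusted p = 0.00426). Old replicate 3 was the highest library in both, and neither pair of groups overlapped. The ubiquitin ligase gene Rnf112 was at 1.75 ± 0.290 against 0.682 ± 0.251 CPM (1.36 ± 0.24), Dach2 at 6.89 ± 1.24 against 3.44 ± 0.623 CPM (1 ± 0.14) and the RNA-binding protein gene Khdrbs2 at 18.4 ± 2.39 against 10.6 ± 1.98 CPM (0.80 ± 0.13). Trnp1, a nuclear regulator of neural progenitor expansion, was at 6.82, 7.09, 7.44 and 7.43 CPM in old against 4.52, 4.80, 4.75, 4.87 and 4.87 CPM in young cells (0.60 ± 0.06, adjusted p = 0.00117), and Sh3bp4, an endocytic adaptor gene, at 506 ± 23.3 against 348 ± 28.2 CPM (0.54 ± 0.06, adjusted p = 0.00117). The spread within an age was small beside these 2 differences. Inava was at 56.9 ± 9.08 against 29.1 ± 6.99 CPM (0.97 ± 0.20), the kinase gene Srpk3 at 8.39 ± 1.05 against 4.49 ± 1.26 CPM (0.90 ± 0.18) and AC149090.1, on an unplaced scaffold, at 217 ± 34.4 against 117 ± 17.6 CPM (0.88 ± 0.13). Zfp853 was lower at 11.1 ± 0.939 against 19.1 ± 3.06 CPM (-0.78 ± 0.12). In all, 32 runs of at least 3 neighbouring tested genes were called in 1 direction, 21 higher and 11 lower, with 10.6% of all genes called. The longest was 7 genes from Tfrc, the transferrin receptor gene, on chromosome 16 (32608920 to 33056218). Several runs hold overlapping features that may share reads, such as the protocadherin alpha cluster or Nkx2-2 with Nkx2-2os. The runs are therefore not independent, and the number to be met by chance was not tested. Inava reached an adjusted p of 0.0756, failing without old replicates 2, 3 or 4 or young replicate 1, and Srpk3 0.0582 without old replicate 3.

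The remaining lists held at most 3 calls each, too few to read a share from beside the 5.02% of all genes called lower and 5.63% higher. Immediate early genes had 3 of 25 called lower, chromatin and DNA methylation genes 2 of 30 higher, ependymal markers 1 of 7 lower, mural and fibroblast markers 1 of 9 lower, choroid plexus markers 1 of 5 in each direction and striatal neuron markers 0 of 7, as did microglial (0 of 5) and endothelial markers (0 of 6). For the last 3 lists, 1, 0 and 1 gene had an unadjusted p under 0.05 and DESeq2 called 0 in each. Among M2rtTA and the mouse genes of the cassette's factors 1 of 5 was called lower. The transgene features P2A, T2A and E2A were at 0 in all 9 libraries. Of 10 sex genes 0 passed in edgeR or DESeq2, with 0 at an unadjusted p under 0.05. With 1 library left out, no immediate early gene was called without old replicates 2, 3 or 4 or young replicate 1 and 1 without young replicate 3. The chromatin genes numbered 0 without the same 4 libraries, 1 without young replicates 2 or 3 and 4 without old replicate 1 or young replicate 4. The mouse gene Klf4, the one of these called lower, was called with all 9 libraries and without young replicate 4. It was called in none of the other 8 such fits. The ependymal call held without young replicates 2, 3 or 4 alone, and the choroid plexus gene called lower was lost without old replicate 3 or young replicate 1.

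Untreated libraries of the same animals were also made earlier, after 18 h with the mitogens (stem cell medium) and after 6 and 18 h without them. Fitted alone, these called 994 genes between the ages in stem cell medium (5.95% of 16701, 3.09% higher and 2.86% lower), 246 at 6 h (1.43% of 17192, 0.71% higher and 0.721% lower) and 880 at 18 h (5.19% of 16943, 2.85% higher and 2.34% lower). Of the 960 genes higher at 48 h, 124 were called higher in stem cell medium (12.9% of the 48 h calls and 24.0% of the others), 70 at 6 h (7.29% and 57.4%) and 266 at 18 h (27.7% and 55.1%). Of the 855 lower, 126 (14.7% and 26.4%), 63 (7.37% and 50.8%) and 203 (23.7% and 51.1%) were called lower at those times. These libraries share animals with the 48 h libraries, so an animal's own level enters both sides. Calls in opposite directions numbered 13 and 6 in stem cell medium, 1 and 0 at 6 h and 0 and 0 at 18 h. The difference between the age effects was tested in 18 libraries at a time. It passed for 686 genes between 48 h and stem cell medium (3.85% of 17797), for 51 between 48 h and 6 h (0.285% of 17864) and for 0 between 48 h and 18 h, where 1222 genes had an unadjusted p under 0.05. With animals as blocks 721 genes passed against stem cell medium (4.05%), 109 against 6 h (0.610%) and 59 against 18 h (0.334%), and DESeq2 called 47 in the last. Leaving out 1 animal moved the first count between 118 and 1340, and more than 1.5-fold without old replicates 2 (218), 3 (118) or 4 (207) or young replicates 1 (134), 2 (407), 3 (358) or 5 (1340). The second ran from 1 to 284: it was 1 without old replicate 3 or young replicate 1, 2 without old replicate 4, 8 without old replicate 2 or young replicates 3 or 5, 21 without young replicate 2, 33 without old replicate 1 and 284 without young replicate 4.

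Some genes differed by age at every time. Nkx2-2 was higher by 0.63 in stem cell medium and by 0.58, 0.72 and 0.67 at 6, 18 and 48 h, Cdkn1c by 1, 1.25, 1.04 and 1.03 in the same order, and Pcdhb2 by 0.87, 0.89, 0.83 and 0.71, each passing at all 4 times. Igf2bp2 was lower by -1.53, -1.74, -1.62 and -1.49, Zic1 by -2.21, -2.37, -2.67 and -2.98 and Ndn by -0.29, -0.27, -0.23 and -0.32, again passing at each. For Gpr17 the changes were 1.06, 1.02, 0.91 and 0.89, of which the last alone passed (adjusted p = 0.15, 0.082, 0.086 and 0.0275). Its level, scaled over all 36 untreated libraries, was 3.01 ± 1.27 CPM in old against 1.44 ± 0.738 CPM in young cells in stem cell medium, then 66.3 ± 8.78 and 32.6 ± 9.99 CPM at 6 h, 725 ± 130 and 388.5 ± 111 CPM at 18 h and 2590 ± 267 and 1403 ± 375 CPM at 48 h. No difference between its age effects was called (adjusted p = 0.87 for 48 h against stem cell medium and 0.90 against 6 h).

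Others had an age effect at 48 h that differed from that in stem cell medium. They were named for their 48 h change or by an interaction test, so the picking favours such a difference. Id3 was at 152 ± 8.93 CPM in old against 166 ± 9.46 CPM in young cells in stem cell medium, 97.9 ± 5.13 and 98.0 ± 4.67 CPM at 6 h, 81.1 ± 6.12 and 77.1 ± 5.89 CPM at 18 h and 55.6 ± 11.2 and 30.1 ± 4.92 CPM at 48 h, so its mean was lower at each later time in both ages, and at the last time it was higher in old cells. Its age effect differed between 48 h and stem cell medium by 1.02 (adjusted p = 0.0069) and between 48 h and 6 h by 0.89 (adjusted p = 0.040). Dlx1 had age effects of -0.26, -0.31, -0.54 and -1.63 in that order of times, and 48 h differed from stem cell medium (adjusted p = 0.013) and from 6 h (adjusted p = 0.040). Kitl had -0.56, -0.69, -1.07 and -1.49, all passing, and 48 h differed from stem cell medium (adjusted p = 0.045). Egfr went from -0.16 to -0.59 (adjusted p = 0.039) and Ccne1 from 0.03 to 0.59 (adjusted p = 0.016), in each case against stem cell medium. Nell2, a secreted EGF-like repeat protein gene, had age effects of 0.12, -0.14, -0.64 and -0.64, so its value at 18 h of differentiation was already that at 48 h, and 48 h differed from stem cell medium (adjusted p = 0.0019) and from 6 h (adjusted p = 0.040). A few had age effects of opposite sign, of which those before 48 h passed on their own for Slc22a17 at both times and for Tmem255b in stem cell medium. Tfrc went from -0.12 in stem cell medium and -0.22 at 6 h to 0.32 at 48 h (adjusted p = 0.0099 and 0.024), Slc22a17 from -0.31 and -0.23 to 0.24 (adjusted p = 0.0019 and 2.3e-04), Efs, an adaptor of Src kinases, from -0.20 and -0.07 to 0.34 (adjusted p = 0.016 and 0.024), Tmem255b from -0.30 to 0.34 against stem cell medium (adjusted p = 0.0019), and Bdnf, the neurotrophin gene, from 0.38 and 0.49 to -0.31 (adjusted p = 0.016 and 0.024). At 48 h Slc22a17 was at 402, 403, 413 and 407 CPM in old against 338, 348, 357, 329 and 351 CPM in young cells. At that time the groups did not overlap in any of these 5 genes, and Bdnf alone of them lost its call with 1 library left out (highest adjusted p = 0.0667, without old replicates 2, 3 or 4 or young replicate 1). Against 18 h of differentiation none of these genes passed without a block. With animals as blocks, Dlx1 (adjusted p = 0.0053), Tfrc (0.0168), Tmem255b (0.0214) and Egfr (0.0467) did, and Tmem255b also passed against 6 h (0.0293).

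**Figure D4:**
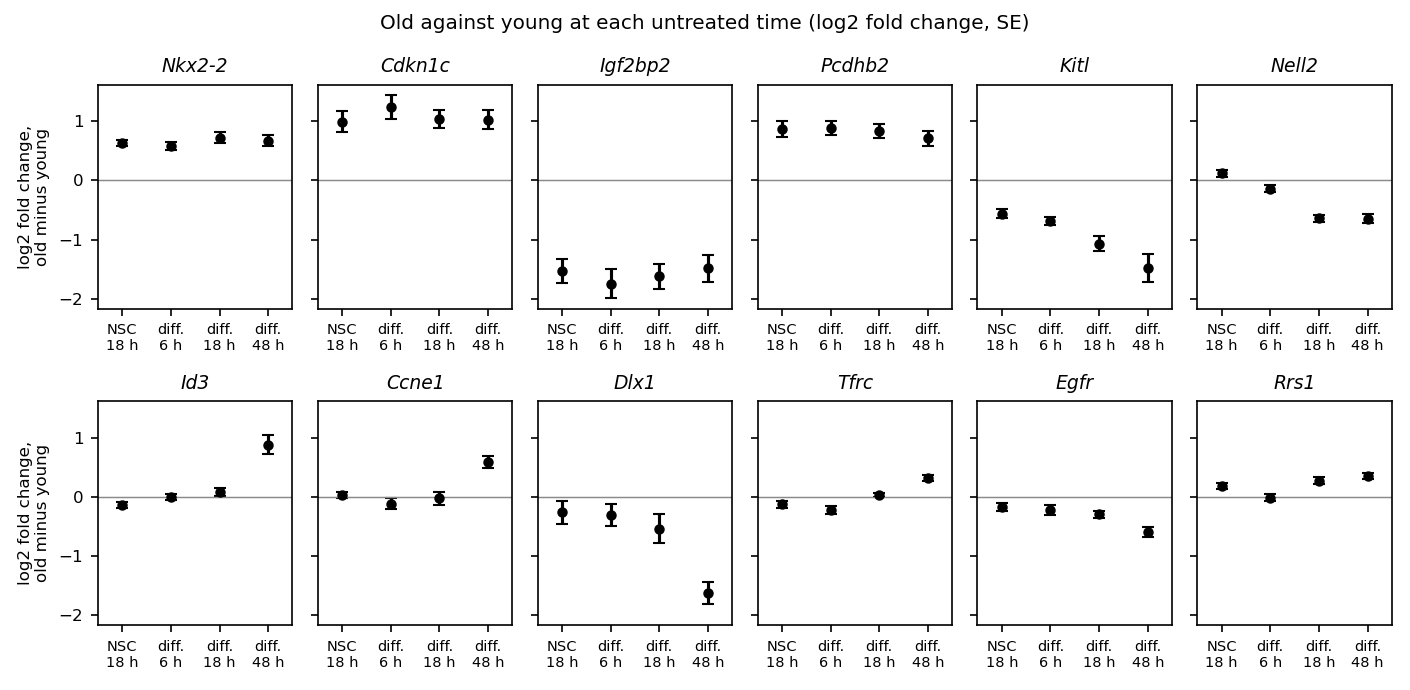
Log2 fold change of old against young cells with its SE (vertical axes) at 18 h in stem cell medium (NSC) and at 6, 18 and 48 h of differentiation (diff.) for 12 genes, each time fitted on its own 9 libraries. Nkx2-2, Cdkn1c, Pcdhb2 and Igf2bp2 keep a similar difference throughout, while Id3, Ccne1 and Dlx1 stand apart from 0 mainly at 48 h and Tfrc lies below 0 at first and above it at 48 h.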

How the data were processed

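RNA-seq counts per gene were deposited by the authors for 65 libraries, with the sample in each column name. The build mm10 and, with no role given, the tools STAR 2.7.10b, Subread, SAMtools, DESeq2 1.40.1 and Trim Galore 0.6.6 are named per the submitters' processing notes. The annotation and the strand setting are not given in the sources used here. Further named genes overlap a feature on the other strand, so their reads may be mixed as well. Among them are Slc7a10 (11.9 CPM, with Lrp3 at 91.2 CPM), Pllp (73.6 CPM, with Gm45767 at 68.1 CPM), Cdkn1c (with Gm44732) and Dlx1 (with Dlx1as). Some overlap a feature on the same strand, which no strand setting would separate. Such genes include Ctsd (485 CPM, with Gm49369 at 280 CPM), Igf2 (0.572 CPM, with Gm49394 at 0.54 CPM) and Pcdhb2 (17.3 CPM, with Gm42416 at 362 CPM). In the 9 libraries even counts prevail among the lowest values (10302 values of 2 against 2656 of 1), so a read pair may add 2 counts. The authors also deposited variance-stabilised log2 values, used here as an alternative only. The gene length column was not used.

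The old and young libraries at 48 h (72.5 M to 98.0 M counts each) were compared with edgeR 4.0.16 in R 4.3.3, on genes kept by filterByExpr with a minimum count of 10, with TMM scaling and robust quasi-likelihood tests; Benjamini-Hochberg adjusted p-values under 0.05 over all genes tested were called. SE is the absolute log2 fold change over the square root of F. Levels are TMM-scaled CPM of the deposited counts, not scaled by gene length, so they are compared between libraries and not between genes. The age effects at 2 times were compared by an interaction term over 18 libraries. Single values were tested by exact two-sided permutation. The tests were checked on simulated data. Alternatives used DESeq2 1.42.0, limma 3.58.1 and other filters, covariates and libraries.

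The comparison, its members and the 46 gene lists were chosen with earlier results of these data known. Genes are named by size (mean of at least 5 CPM, no overlap), by adjusted p, as the most changed called members of each list, by the gap between the groups (mean of at least 1 CPM) or a run of neighbours, and by interaction. Gene positions are from GENCODE M21. Each library is 1 animal. Replicate numbers shared by old and young animals belong to different animals. Deviations of the same animal at 48 h and at another time correlated positively in every animal and at each of the 3 times (r = 0.18 to 0.66), so the interactions were also fitted with animals as blocks. Some genes are not reported here.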

Additional observations from a re-analysis of the deposited data

Results flagged for a closer look

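Among 228 groups of 4 or 5 libraries examined, 5 held 1 library whose gap to the nearest other exceeded Dixon's critical value, a test that chance passes in about 1 in 20 groups. In old replicate 3, Khdrbs2 was at 21.97 CPM against 16.84 to 17.49 in the other old libraries and Cpe at 2366 against 2883 to 2975. Young replicate 3 had Dll3 at 43.74 CPM against 35.09 to 35.96 in the other young libraries, and 2.031% of its counts on features overlapping ribosomal RNA against 2.731 to 2.844%. Mfng was at 18.98 CPM in young replicate 2 against 14.89 to 16.05.

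Among 111 genes named above with their 48 h change, 22 had an age effect at 48 h that differed from that in stem cell medium. The test was the edgeR interaction term, adjusted over all genes tested, of which 3.85% passed. Tmem255b, Slc22a17, Efs, Bdnf, Tfrc and Nell2 were named by an interaction test. Most others were picked for their 48 h change, and the same 48 h libraries are 1 side of each interaction. The picking therefore favours a difference, and neither this count nor that against 6 h can be read beside the share of all genes. Values are the 48 h log2 fold change minus the other. The age effect was higher at 48 h for Id3 (1.02), Id1 (0.84), Tnc (0.71), Tmem255b (0.63), Ccne1 (0.55), Slc22a17 (0.53), Efs (0.53), Tfrc (0.44), Gria3 (0.43), Sdf2l1 (0.37), Grin3a (0.36), Wdr12 (0.28) and Vars (0.25). It was lower for Dlx1 (-1.38), Kitl (-0.93), Adm (-0.80), Dlx2 (-0.79), Nell2 (-0.77), Tnfrsf19 (-0.70), Bdnf (-0.69), Egfr (-0.44) and Decr1 (-0.29). Against 6 h of differentiation 9 differed (0.285% of all genes tested did). Ccne1 (0.69), Tfrc (0.54), Slc22a17 (0.46), Efs (0.41), Rrs1 (0.36) and Id3 (0.89) were higher at 48 h, and Dlx1 (-1.32), Bdnf (-0.80) and Nell2 (-0.51) lower. With animals as blocks 2 of the 22 no longer passed, Id1 (adjusted p = 0.0527) and Tnc (0.129), and 12 further named genes did. Against 6 h the 9 held and 8 further ones passed, and against 18 h of differentiation 7 passed: Dlx1, Mal, Gria3, Asns, Tmem255b, Egfr and Tfrc.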

How the results depend on the processing

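Over 21 alternatives to the 48 h comparison none of the 1815 called genes changed direction, named above or not. The alternatives share these libraries, so this is no separate support for a gene. Of 110 called genes named with their 48 h change, 72 passed without each library in turn and 6 passed in every alternative. Of all 1815 called genes, 566 were kept without old replicate 3 and 730 without old replicate 2. Many named genes were picked by small p or wide gap, so their share is not that of all called genes. DESeq2 called 1403 genes higher and 1375 lower. Its largest shifts in list counts were protocadherins lower (16 against 0), oligodendrocyte precursor markers higher (14 against 8), growth factor signalling genes lower (14 against 8) and contractile genes lower (8 against 3). The cultures of 1 sex gave few calls: 13 higher and 12 lower in females, 70 and 100 in males. Leaving out 1 library gave 283 to 1298 higher and 289 to 1163 lower. Other scalings moved the median of all genes by under 0.01. Each scaling itself sets the typical gene near 0, so this cannot show whether a shift shared by all genes was present.

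Old and young libraries of the same replicate number are different animals. Their deviations from the group means correlated at r = -0.25, 0.29, -0.19 and 0.66 for the 4 shared numbers, in both directions. Whether same-numbered libraries share anything else was not tested. With the number as a replicate block 1369 genes were higher and 1262 lower. Protocadherins called lower then numbered 11.

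For the age effect at 48 h against stem cell medium, DESeq2 called 1462 genes, and leaving out 1 animal 118 to 1340. Animals as a replicate block gave 721. Against 6 h the block gave 109, DESeq2 323, sex as a covariate 21 and leaving out 1 animal 1 to 284. Against 18 h of differentiation the block gave 59, DESeq2 47 and leaving out 1 animal 0 to 1, the 1 being without young replicate 5. The cause of these shifts was not tested. With 4 and 5 animals no exact test of a single value can fall below 0.0159, and genes near 0 CPM, such as Dlx6os1, rest on few counts.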
